A study of Mus musculus with 4 samples.

Results

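This account follows 9 genes of the p53 pathway and its damage response in mouse E14 embryonic stem cells given valproic acid (VPA), an antiepileptic drug that blocks histone deacetylases. They are Mdm2, Mdm4, Sesn1, Sesn2, Trp53inp1, Gadd45a, Gadd45b, Plk2 and Cdkn1b, taken from 19938 genes with a probe set of their own. The set holds 10 genes of the pathway, named with earlier results of these data known. The remaining one, Trp53, which encodes p53 itself, had no probe set with that single symbol in the annotation used and was not analysed here. A probe set is a group of array probes read as 1 value, and the 9 genes had 10 of the 35556 on the array. Only Cdkn1b had more than one, and its brighter probe set, by the mean of the 4 arrays, stood for it.

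Total RNA was hybridised to 4 one-colour Affymetrix arrays. The untreated group (2 arrays) was E14 cells without VPA, and the VPA group (2 arrays) was E14 cells with 0.5 mM VPA in the medium for 4 h. Both groups grew in serum with leukemia inhibitory factor on primary embryonic fibroblasts that had been stopped from dividing with mitomycin C, a DNA crosslinker. E14 is a single established line, and the labels do not say that the 2 arrays of a group came from separate cultures. The p-values therefore speak only for these arrays. They and each SE of a gene also rest on a variance drawn toward that of all probe sets. Over all probe sets, untreated replicate 2 stood furthest from the rest. The SD of its log2 difference was 0.311 from untreated replicate 1, 0.33 from VPA replicate 1 and 0.36 from VPA replicate 2. The VPA arrays gave 0.28 between them. Untreated replicate 1 was nearer to VPA replicate 1 (0.297) and VPA replicate 2 (0.301) than to untreated replicate 2, so the untreated arrays did not group together.

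p53 is a transcription factor that is held at a low level by Mdm2, a ubiquitin ligase and itself a p53 target, and held inactive by the related protein Mdm4. Stress that damages DNA breaks this hold. p53 then activates genes that stop the cell cycle, restrain growth signalling or start cell death. Embryonic stem cells are known for high p53 levels and for a weak arrest in G1. Several of the genes here also answer to other factors: Sesn2 to the amino acid and oxidative stress responses, Gadd45b to NF-kB and TGF-beta signalling, and Cdkn1b to FOXO factors.

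None of the 9 genes passed the test across the array. By limma, with p-values adjusted by Benjamini-Hochberg over the 35556 probe sets, 0 had an adjusted p under 0.05 (a percentage of 0.0), and the smallest adjusted p among the main probe sets of these genes was 0.51 (Sesn1). Without adjustment, 3269 probe sets had p under 0.05, 2049 of them with a higher VPA mean and 1220 with a lower one. The other settings run also called none. What follows is therefore a description of small differences, the largest of which was 1.24-fold for a main probe set. The sestrin genes ran in opposite directions, with Sesn1 higher and Sesn2 lower on both VPA arrays than on both untreated ones. The 2 Gadd45 genes had lower means with VPA, and Mdm2, Trp53inp1 and Plk2 had higher ones.

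The arrays of the 2 groups did not overlap for 4 genes that were higher with VPA (Mdm2, Sesn1, Trp53inp1 and Plk2) and 2 that were lower (Sesn2 and Gadd45b). They overlapped for Mdm4, Gadd45a and Cdkn1b. Over all 19938 genes, 24.1% were higher and 18.1% lower without overlap, 42.2% in all. The 9 genes gave 44.4% and 22.2%, from counts too small to read more from. Of the 9, 6 had a higher mean with VPA and 3 a lower one, where 53.7% of all genes had a higher mean. The median log2 difference was 0.12 over the 9 genes and 0.015 over all genes. That median rested on the untreated arrays: leaving out untreated replicate 2 gave 0.032, and leaving out untreated replicate 1 gave 0.22. Of the 9 genes, 7 were lower on untreated replicate 2 than on untreated replicate 1, by a median of −0.17 over the 9, where 49.0% of all genes were lower.

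**Figure D1:**
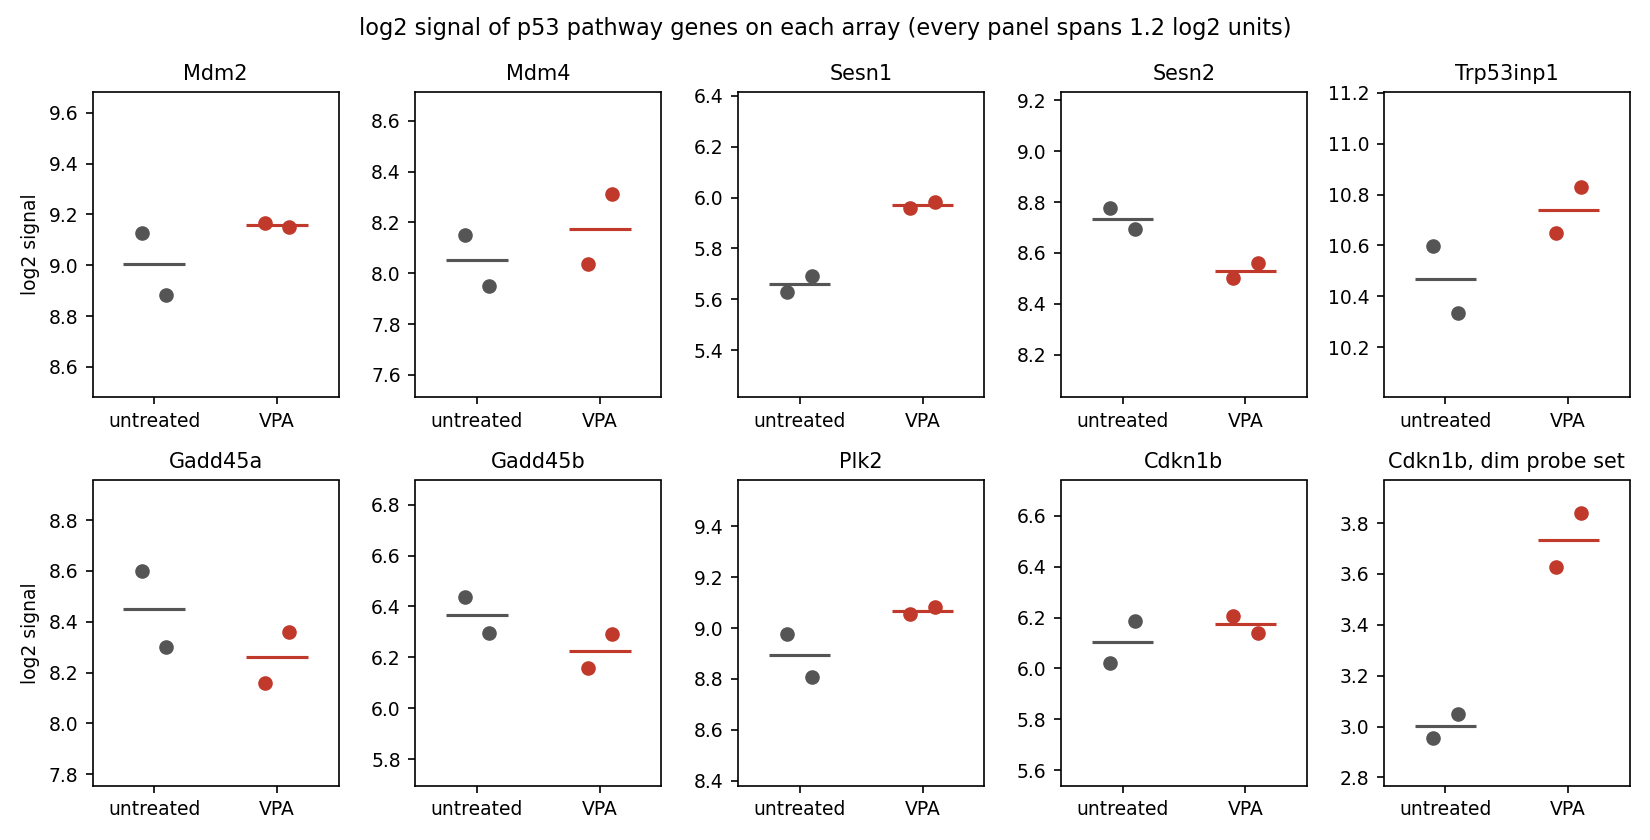
Each panel plots the log2 signal of 1 gene on the 2 untreated arrays (grey) and the 2 VPA arrays (red), with a line at the group mean; all panels span the same number of log2 units. Sesn1 at 5.63 and 5.69 against 5.96 and 5.98 shows the widest gap among main probe sets relative to its replicates, and the dim second probe set of Cdkn1b differs more than its main one.

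The sestrins restrain the growth kinase complex mTORC1 through the GATOR complexes, and Sesn1 was first known as a p53 target. The Sesn1 signal was 5.63 and 5.69 on the untreated arrays and 5.96 and 5.98 on the VPA arrays, in log2 units. Both VPA arrays were above both untreated ones, by a gap of 0.27 between the nearest arrays. The difference was 0.31 ± 0.11 (SE, n = 2 per group), a 1.24-fold higher mean with a 95% interval from 1.03-fold to 1.5-fold (limma unadjusted p = 0.032, adjusted p = 0.51). Without adjustment 5.9% of all genes were higher at a p under 0.05. The difference stayed between 0.28 and 0.34 as each array was left out in turn.

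Sesn2, which also binds leucine as part of amino acid sensing, ran the other way. Its log2 signal was 8.77 and 8.70 on the untreated arrays and 8.50 and 8.56 on the VPA arrays. Both VPA arrays were below both untreated ones, by 0.14 between the nearest arrays. The difference was −0.20 ± 0.11 (SE, n = 2 per group; limma adjusted p = 0.62), with a 95% interval from −0.48 to 0.074. It lay between −0.24 and −0.17 as each array was left out.

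The pair was also compared within each array, a choice made after its values were seen. Sesn1 minus Sesn2 was −3.15 and −3.0 in untreated cells and −2.54 and −2.58 in VPA cells. Only the change in this difference can be read, because probes of different genes bind with different strength. It moved by 0.52, from −3.08 ± 0.10 to −2.56 ± 0.024 (SD, n = 2), and the groups did not overlap. Sesn1 was higher and Sesn2 lower without overlap, so their difference was bound to separate the groups. An exact two-sided permutation test over arrays gave p = 0.33, the smallest that 2 against 2 allows. That p was fixed in the same way, and the comparison adds nothing to the values of each gene. The other related pairs showed no such gap: Mdm2 minus Mdm4 changed by 0.031 (exact permutation p = 1.0), and Gadd45a minus Gadd45b by −0.048 (exact permutation p = 0.67). Arrays overlapped in both.

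**Figure D2:**
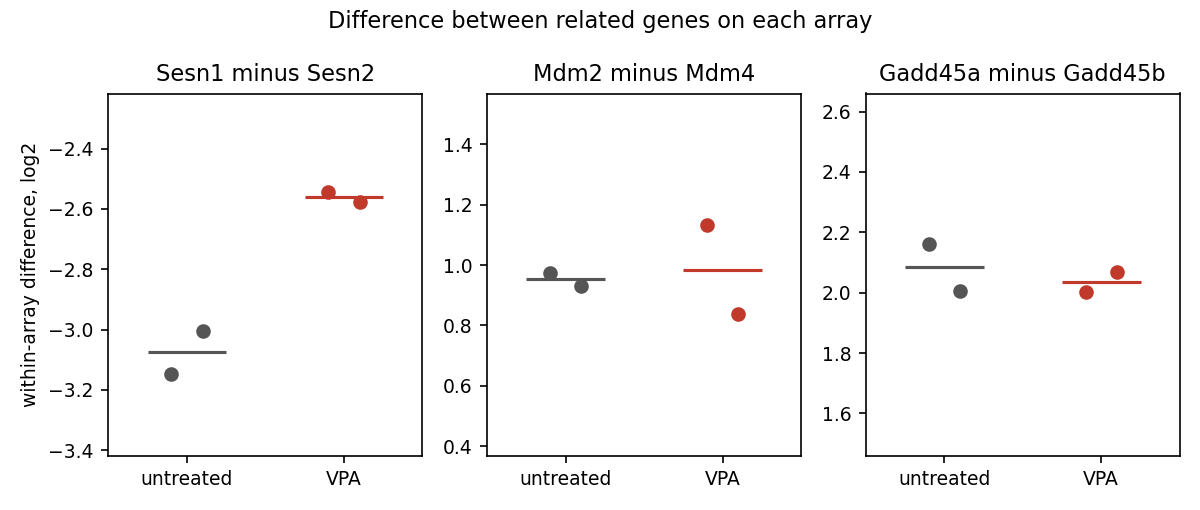
Points are the difference in log2 signal between 2 related genes on the same array, untreated in grey and VPA in red, with lines at group means. Sesn1 minus Sesn2 separates the groups (−3.15 and −3.0 against −2.54 and −2.58), and the other pairs overlap. The separation was bound to appear, since the 2 sestrin genes each separate the groups in opposite directions.

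The bases upstream of the sestrin genes are shown because, among the 3 related pairs, only the sestrins ran in opposite directions without overlap. RefSeq lists 2 transcription start sites for Sesn1 and 1 for Sesn2 in the table used (build GRCm38.p6), and each line gives the 250 bases before a start, 5′ to 3′ on the gene's strand. Capitals mark the GC box (GGGCGG) and the CCAAT box (CCAAT) on either strand. The first Sesn1 stretch is chr10:41810324-41810573 (plus strand), the second is chr10:41887189-41887438 (plus strand) and the Sesn2 stretch is chr4:132510457-132510706 (minus strand).
Sesn1, first start: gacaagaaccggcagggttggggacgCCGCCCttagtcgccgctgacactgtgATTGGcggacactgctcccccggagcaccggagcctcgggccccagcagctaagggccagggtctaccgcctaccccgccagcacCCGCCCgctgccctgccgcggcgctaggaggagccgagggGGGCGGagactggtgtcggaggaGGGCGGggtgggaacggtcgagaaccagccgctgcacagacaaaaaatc
Sesn1, second start: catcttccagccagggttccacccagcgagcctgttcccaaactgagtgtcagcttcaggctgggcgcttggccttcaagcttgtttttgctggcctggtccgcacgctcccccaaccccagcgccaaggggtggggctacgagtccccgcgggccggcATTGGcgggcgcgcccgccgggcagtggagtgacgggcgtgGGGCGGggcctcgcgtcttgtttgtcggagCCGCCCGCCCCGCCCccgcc
Sesn2: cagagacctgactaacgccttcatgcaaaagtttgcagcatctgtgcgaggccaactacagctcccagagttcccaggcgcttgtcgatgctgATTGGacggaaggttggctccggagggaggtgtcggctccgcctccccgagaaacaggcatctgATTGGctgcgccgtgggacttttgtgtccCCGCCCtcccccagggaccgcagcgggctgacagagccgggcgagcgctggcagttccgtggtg
Each Sesn1 stretch held 4 GC boxes and 1 CCAAT box, and the Sesn2 stretch held 1 and 2, with overlapping matches counted. The p53 consensus decamer, of which a full p53 site has a pair, was found once in the second Sesn1 stretch and in neither of the others. Which start site the Sesn1 probes read was not tested.

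The search was repeated over windows of 300 bases, from 250 before to 50 after a start, on both strands. The table held 10 such windows for 8 of the 9 genes, Trp53inp1 being the other, and 32851 windows in all. The p53 decamer was present in 3 of the 10 (Gadd45a, Mdm2 and Sesn1) and in 8.36% of all windows. The GC box was present in 8 of the 10 and in 35.7% of all windows, and the CCAAT box in 7 of the 10 and in 37.4%. The forkhead site GTAAACA was found for Mdm2 and Sesn1 (3.65% of all windows), the E-box CACGTG for Gadd45b (7.15%), and the cAMP response element TGACGTCA for Plk2 (1.79%). A match is only a match of letters. The known p53 sites of Mdm2 and Gadd45a lie in introns, and whether these windows reach them was not tested. A window without the decamer therefore says nothing about p53.

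Among the regulators of p53, Mdm2 had a log2 signal of 9.13 and 8.88 on the untreated arrays and 9.17 and 9.15 on the VPA arrays. Untreated replicate 2 was the low array and the other 3 lay close together, so the groups were only 0.024 apart at their nearest. The difference was 0.15 ± 0.13 (SE, n = 2 per group; limma adjusted p = 0.76), and without untreated replicate 2 it was 0.032. Mdm4 gave 8.15 and 7.95 on the untreated arrays and 8.03 and 8.31 on the VPA arrays, which overlapped. Its difference was 0.12 ± 0.15 (SE; limma adjusted p = 0.84), and it was −0.017 without VPA replicate 2. The 95% intervals ran from 0.88-fold to 1.4-fold for Mdm2 and from 0.83-fold to 1.42-fold for Mdm4.

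Trp53inp1 encodes a nuclear protein that p53 induces and that in turn aids p53 and autophagy. Its log2 signal was 10.60 and 10.33 on the untreated arrays and 10.65 and 10.83 on the VPA arrays. The groups were 0.049 apart at their nearest, and the 2 arrays within each group differed by more than that. The difference was 0.27 ± 0.15 (SE, n = 2 per group; limma adjusted p = 0.63), and it lay between 0.14 (without untreated replicate 2) and 0.40 (without untreated replicate 1). Plk2, a polo-like kinase that acts in centriole duplication and is a p53 target, had values of 8.98 and 8.81 on the untreated arrays and 9.06 and 9.08 on the VPA arrays. Its difference was 0.18 ± 0.12 (SE; limma adjusted p = 0.70), and it was 0.091 without untreated replicate 2.

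The Gadd45 proteins bind PCNA and Cdk1 and activate the kinase Map3k4. Gadd45a had a log2 signal of 8.60 and 8.30 on the untreated arrays and 8.16 and 8.36 on the VPA arrays, with VPA replicate 2 above untreated replicate 2. The difference was −0.19 ± 0.15 (SE, n = 2 per group; limma adjusted p = 0.75), which became −0.043 when untreated replicate 1 was left out and −0.34 when untreated replicate 2 was. Gadd45b gave 6.44 and 6.30 on the untreated arrays and 6.16 and 6.29 on the VPA arrays. Those groups were 0.0061 apart at their nearest, and the difference was −0.14 ± 0.12 (SE; limma adjusted p = 0.76). It was −0.073 without untreated replicate 1. After centring each array on its median the Gadd45b arrays overlapped, and after a second quantile normalization both Gadd45 genes were lower without overlap.

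Cdkn1b encodes p27, an inhibitor of cyclin-dependent kinases of the Cip/Kip family. Its main probe set (10542310) gave 6.02 and 6.19 on the untreated arrays and 6.21 and 6.14 on the VPA arrays. The groups overlapped, and the difference of 0.068 ± 0.12 (SE, n = 2 per group; limma adjusted p = 0.90) turned to −0.0052 after a second quantile normalization. The second probe set (10542317) was dim, at the 29.8th to 31.8th percentile of the untreated arrays. It gave 2.96 and 3.05 on the untreated arrays and 3.63 and 3.84 on the VPA arrays, with no overlap. That difference was 0.73 ± 0.13 (SE; limma unadjusted p = 0.0023, adjusted p = 0.46). Its signals were below the array medians of 3.80 to 3.82 on 3 arrays and it has no detection call, so it is not shown to be above background and no fold is given. The mean of both probe sets gave 0.40 ± 0.11 (SE) (limma adjusted p = 0.499). Which part of the transcript each one reads was not tested.

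**Figure D3:**
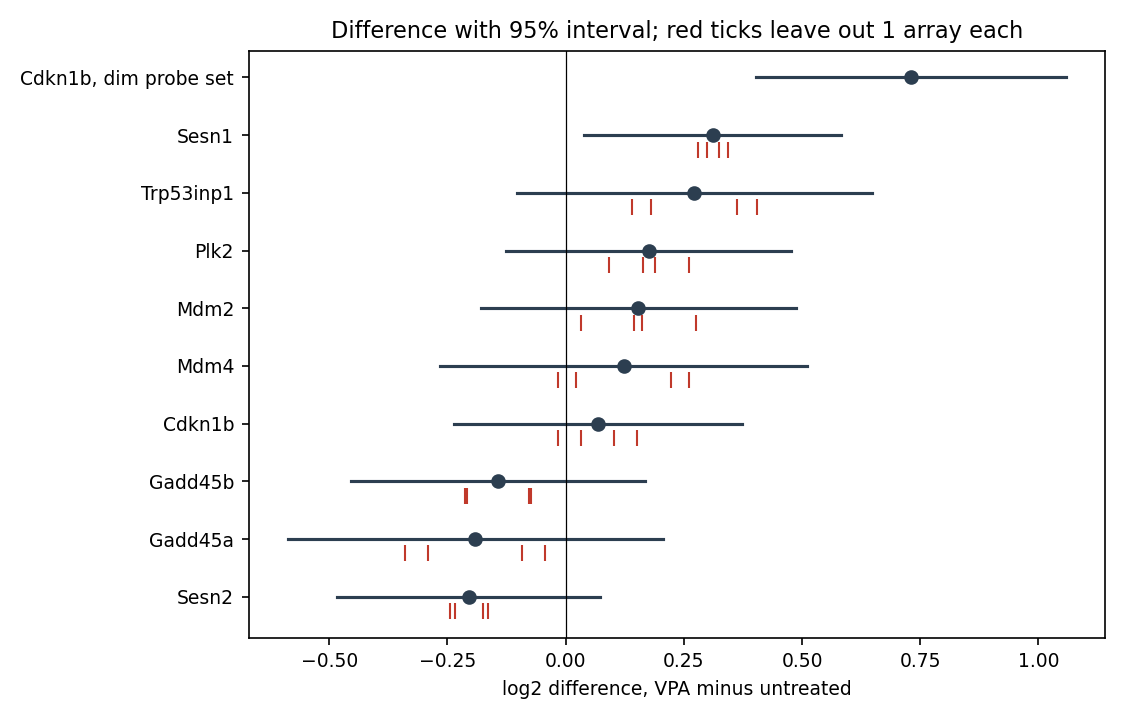
Points are log2 differences (VPA minus untreated), dark lines their 95% intervals from limma before adjustment, and red ticks the values with each of the 4 arrays left out in turn (main probe sets). The intervals of Sesn1 (0.039 to 0.58) and of the dim Cdkn1b probe set (0.40 to 1.06) stay above 0, and the ticks of Mdm4 and Cdkn1b reach both sides of it.

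The main probe sets of all 9 genes lay in the upper part of their arrays, ranked among all 35556 probe sets. Of those, 12146 had no gene symbol, and the share of all genes that rank as high was not counted. In untreated cells the main probe sets lay between the 70.1st percentile of all probe sets (Sesn1) and the 97.8th (Trp53inp1). Mdm2 lay at the 93.3rd to 93.9th, Plk2 at the 93.0th to 93.3rd and Sesn2 at the 92.3rd to 92.4th percentile. Gadd45a lay at the 90.5th to 91.6th, Mdm4 at the 88.5th to 89.2nd, Gadd45b at the 76.0th to 77.0th and Cdkn1b at the 73.6th to 75.1st percentile. Percentiles place a probe set on its array and do not order the genes, since probe affinity differs between probe sets.

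The genes around this set were described through 7 lists. Of 56 names of other p53 targets, 48 were measured. Of these, 25 had a higher and 23 a lower mean with VPA, and their median difference of 0.0066 lay near the 0.015 of all genes. That median turned to −0.029 after a second quantile normalization and to −0.014 when VPA replicate 1 was left out, while leaving out VPA replicate 2 gave 0.071. Without overlap between groups, 17 were higher (35.4%) and 10 lower (20.8%), against 24.1% and 18.1% of all genes. At an unadjusted limma p under 0.05, 8 of the 48 were higher and 3 lower. Over all 19938 genes, 1177 were higher (5.9%) and 540 lower (2.71%) at that p. None of the 48 passed after adjustment. The members of smallest p were the antiproliferative gene Btg2 at 0.66 ± 0.11 (SE, adjusted p = 0.46) and the unconventional cyclin gene Ccng2 at 0.59 ± 0.11. On the other side were Rprm, which encodes a mediator of G2 arrest, at −0.45 ± 0.12, and Gtse1, which restrains p53, at −0.33 ± 0.11. Btg2 gave 6.34 and 6.31 on the untreated arrays and 7.03 and 6.93 on the VPA arrays, with no overlap.

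Among the p53 targets that were to be named whatever they showed, Btg2 is given above and Gadd45g differed by −0.30 ± 0.26 (SE). The 5 others measured each differed by at most 0.27 on the log2 scale. Ccng1, a target induced in many tissues, lay at 11.28 and 11.06 on the untreated arrays and at 11.27 and 11.30 on the VPA arrays, a log2 difference of 0.12 ± 0.13 (SE). The cell death genes Bbc3 (Puma) and Pmaip1 (Noxa) differed by −0.17 ± 0.12 and 0.14 ± 0.19. Ppm1d, a phosphatase that switches the response off, differed by 0.26 ± 0.12, and Sesn3, the remaining sestrin, by 0.27 ± 0.18. The adjusted p in limma was between 0.59 and 0.87 for these 5 genes. Cdkn1a and Bax, which encode the Cdk inhibitor p21 and a pore-forming death protein, had no probe set with a single symbol and were not analysed here.

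Of 32 names of p53 regulators, 28 were measured, 15 with a higher and 13 with a lower mean with VPA (median log2 difference 0.065, and 0.016 to 0.045 with each array left out in turn). The checkpoint kinase gene Chek2 differed by 0.45 ± 0.15 (SE) and the repair kinase gene Prkdc by 0.34 ± 0.16. The acetyltransferase genes Crebbp and Kat5, whose products acetylate p53, differed by −0.53 ± 0.14 and −0.44 ± 0.12. None passed after adjustment (limma adjusted p between 0.48 and 0.58).

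The list of Gadd45 partners, which also holds Gadd45g itself and MAP kinases, had 13 names, of which 11 were measured. Its median log2 difference was 0.069, and 0.026 after a second quantile normalization. Of the 11 genes, 10 had a higher mean and 1 a lower one with VPA, where 53.7% of all genes had a higher mean. Without overlap, 6 were higher (54.5%) and 0 lower, against 24.1% and 18.1% of all genes. Mapk9 (the kinase JNK2) differed by 0.43 ± 0.13 (SE) and Map2k3 by 0.32 ± 0.12, while Map3k4 itself differed by 0.032. The 1 gene with a lower mean was Gadd45g, at −0.30 ± 0.26. Its 2 untreated arrays were far apart, at 4.84 and 5.6, and the VPA arrays were both at 4.92. No gene of the list passed after adjustment (limma smallest adjusted p = 0.5).

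Among the sestrin partners and GATOR subunits, 13 of 18 had a higher mean with VPA and 5 a lower one (median log2 difference 0.024, which was −0.036 after a second quantile normalization and −0.0056 without VPA replicate 2). Nprl2, a GATOR1 subunit, differed by 0.49 ± 0.11 (SE) and Prkaa2, a catalytic subunit of AMP-activated kinase, by 0.50 ± 0.13. Seh1l, a GATOR2 subunit, differed by −0.20 ± 0.16 and Keap1, the adaptor that marks Nrf2 for destruction, by −0.078 ± 0.11. Of the kinase inhibitors and G1 genes related to Cdkn1b, 19 of 20 were measured, 12 with a higher and 7 with a lower mean (median 0.015, and 0.013 to 0.084 with each array left out in turn). Cdk2, which p27 inhibits, differed by 0.52 ± 0.12 and Skp2, which marks p27 for destruction, by 0.31 ± 0.11. The cyclin gene Ccnd3 differed by −0.20 ± 0.12 and Cdk6 by −0.19 ± 0.13. The smallest adjusted p in limma was 0.47 in both lists.

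Of the other polo-like kinases, Plk4, which starts centriole duplication, differed by 0.23 ± 0.18 (SE), the mitotic kinase gene Plk1 by 0.097 ± 0.11 and Plk5 by −0.069 ± 0.12, for a median of 0.077 over 4 genes that was 0.018 after a second quantile normalization and 0.00059 without VPA replicate 1. Among FOXO genes, Foxo1 gave 6.95 and 6.93 on the untreated arrays and 7.33 and 7.31 on the VPA arrays, a log2 difference of 0.38 ± 0.10 (SE; limma adjusted p = 0.49). Foxo4 differed by 0.091 ± 0.11, Foxo3 by −0.062 ± 0.16 and Foxo6 by −0.33 ± 0.18 (list median 0.015, which was −0.058 after a second quantile normalization and −0.094 without untreated replicate 1).

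**Figure D4:**
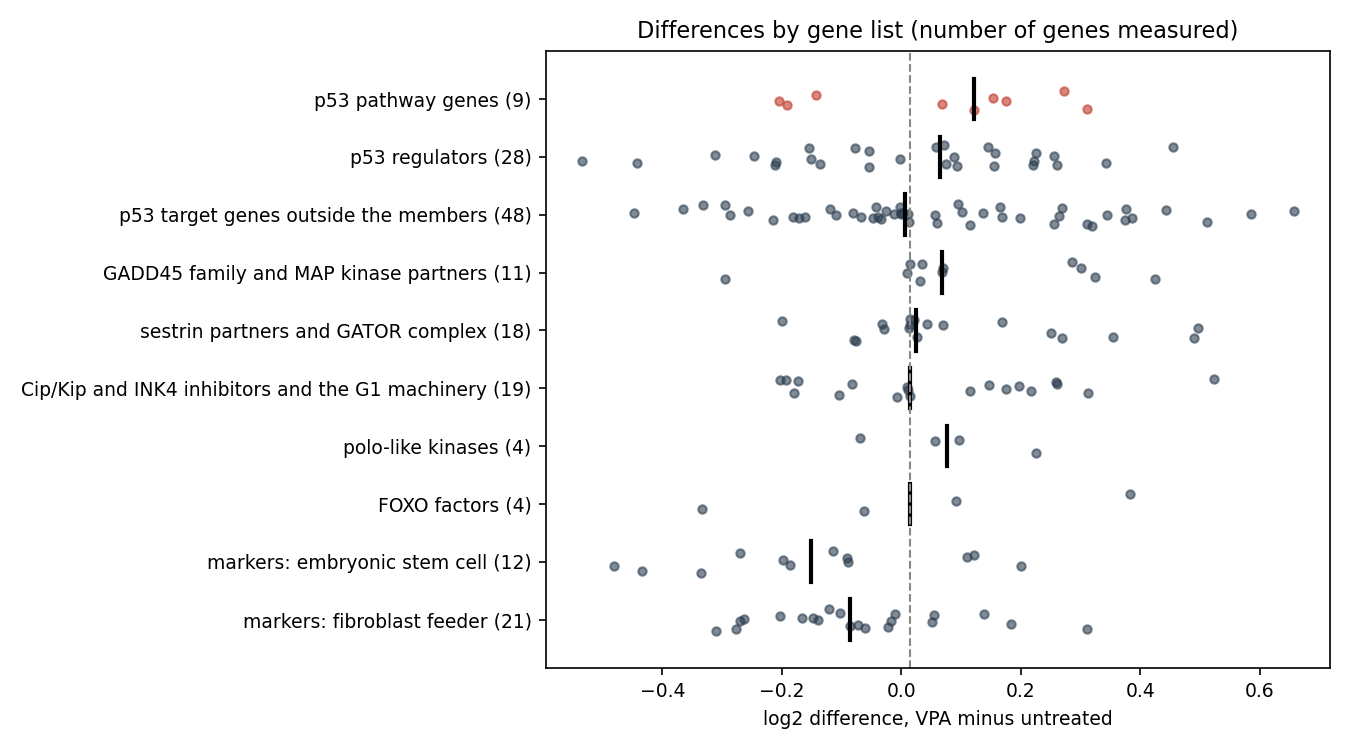
Each point is the log2 difference (VPA minus untreated) of 1 gene, black bars are list medians, and the dashed line is the median of all 19938 genes at 0.015. The 9 p53 pathway genes (red) split into 3 below and 6 above 0, within the range of the other lists.

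Genes with the most similar course over the 4 arrays were sought for the 2 genes of largest absolute difference, Sesn1 and Trp53inp1. Likeness was the root mean square distance between values centred on the gene mean, over 14737 genes for Sesn1 and 13402 for Trp53inp1. The closest to Sesn1 were Rps6ka5 (distance 0.0064 log2 units), Cyp39a1 (0.0092) and Lacc1 (0.010). The closest to Trp53inp1 were Ccdc3 (0.0040), Nkiras2 (0.0059) and Rars2 (0.011). With 4 arrays and this many genes, close courses are found for most patterns.

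The labelled cell type was checked through markers, set against the median of all probe sets on each array. The share of all genes above that median was not counted. All 12 embryonic stem cell markers lay above the array median on every array, at log2 signals of 7.84 to 12.66. Their summed linear signal was 18636 to 20489 in untreated and 18826 to 19255 in VPA cells, and 9 of 12 had a lower mean with VPA. Without overlap, 7 were lower (58.3%) and 1 higher (8.33%), against 18.1% and 24.1% of all genes. Their median log2 signal was 10.26 and 10.11 on the untreated arrays and 9.86 and 9.89 on the VPA arrays. None passed after adjustment (limma smallest adjusted p = 0.48). Of 21 measured fibroblast markers, 15 lay above the array median on every array, and log2 signals ran from 2.18 to 10.28. The brightest in untreated cells were Vim (mean 10.24), Fn1 (9.98) and Sparc (9.14), which weigh most in a sum. Lum (2.18), Postn (2.92) and Ccdc80 (3.17) were the dimmest. The summed linear signal of the 21 markers was 3383 to 3501 in untreated and 3269 to 3291 in VPA cells. With VPA 16 of 21 had a lower mean, where 53.7% of all genes had a higher one. Without overlap, 7 of the 21 were lower (33.3%) and 3 higher (14.3%), and none passed after adjustment (limma smallest adjusted p = 0.53). In RNA from a whole culture, fewer cells of a type and less RNA per cell cannot be told apart. The feeder cells had met a DNA crosslinker, and their part in the signals of these p53 targets was not tested.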

How the data were processed

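According to the submitters' processing notes, RMA in Affymetrix Expression Console 1.1 produced the log2 signals that the authors deposited. RMA corrects background, quantile-normalizes arrays and summarises the probes of each probe set. The set of arrays normalized together was not stated. Array medians lay between 3.80 and 3.82, and no scanner files or detection calls were used here, so 4 arrays set the precision. Symbols came from the platform annotation: 21789 probe sets had 1, 1621 several and 12146 none, and 21698 matched RefSeq gene identifiers. RefSeq GRCm38.p6 gave the promoter sequences.

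The deposited log2 values were fitted with limma 3.58.1 in R 4.3.3 (lmFit, eBayes) over all 35556 probe sets, with treatment as the only term, two-sided, with Benjamini-Hochberg adjustment and a threshold of 0.05. The limma fit was tested on simulated data, with planted changes larger than the VPA differences given here. Intervals are 95% and unadjusted. Each SE, interval and p-value from limma uses a moderated variance, which draws a gene's own variance toward that of all probe sets. In the main fit this prior had 2.93 degrees of freedom, beside 2 residual ones. Of 147 list names, 132 were measured. The text names the 9 measured genes of the set and the 2 genes of smallest p per direction of each list. It also names 11 list genes picked in advance (9 measured), and the 3 closest genes in course to 2 of the set. Outside this rule, Map3k4 and the brightest and dimmest fibroblast markers are named. Members and lists were chosen with earlier results of these data known. Alternatives were scaling, a filter on dim probe sets, variance moderation, pairing, probe set choice and leaving out each array.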

Additional observations from a re-analysis of the deposited data

How the results depend on the processing

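Called probe sets numbered 0 under all 12 alternatives, including the replicate block (0) and the 4 fits that left out 1 array each (0 to 0). At an unadjusted p under 0.05, 62.7% of the probe sets were higher with VPA, and 52.0% after a second quantile normalization. Sesn1, Sesn2, Mdm2, Trp53inp1, Plk2, Gadd45a and Gadd45b kept their direction under both scalings and as each array was left out. The dim filter, variance moderation and pairing leave a difference as it is, so they could not turn a direction. With an array left out, Mdm4 ranged from −0.017 to 0.26 and Cdkn1b from −0.015 to 0.15. The sign turned for Mdm4 without VPA replicate 2 (−0.017) and for Cdkn1b without untreated replicate 1 (−0.015) and after a second quantile normalization (−0.0052). With an array left out, the medians ranged from 0.032 to 0.22 for the 9 genes, 0.016 to 0.045 for p53 regulators, −0.014 to 0.071 for other p53 targets, 0.062 to 0.10 for Gadd45 partners, −0.0056 to 0.13 for sestrin partners, 0.013 to 0.084 for G1 genes, 0.00059 to 0.11 for polo-like kinases and −0.094 to 0.12 for FOXO genes. After a second quantile normalization the medians were −0.029 for other p53 targets, 0.026 for Gadd45 partners, −0.036 for sestrin partners, 0.018 for polo-like kinases and −0.058 for FOXO genes. With dim probe sets left out the G1 median was 0.065, over the brighter members only. The causes were not tested. The replicate numbers are shared by the groups, but the labels do not say that they pair the arrays. The deviations of same-numbered arrays correlated at −0.097 over probe sets and −0.17 over genes. With the replicate block, the SE of the Sesn1 difference was 0.13 (limma adjusted p = 0.69). In balanced groups a block cannot change a difference. The Sesn1 difference of 0.31 and the member and list medians were therefore bound to equal those of the fit without it. A crossed pairing, added after seeing the data, also called 0. Depth in the sense of counts does not apply to arrays, and low signals such as the second Cdkn1b probe set have no detection call.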
